A study of Mus musculus with 9 samples.

Results

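Retinal libraries, as labelled, from aged mice given EGCG (epigallocatechin gallate, a green tea polyphenol) were compared with those from young mice to describe what still separated treated old from young libraries. The comparison took 6 of the 9 libraries of the series, the 3 titled EGCG and the 3 titled YOUNG, and 12306 of the 16231 genes in the count table, those with at least 10 counts in at least 3 of the 6 libraries. The 3 untreated aged libraries entered the fit for its estimate of the spread, and their values are given beside those of the other groups. All 9 libraries are mouse total RNA with the tissue given as retina, and no genetic change or other agent is named for any group. The labels give the age only as young or aged, and state neither the dose, route and duration of EGCG, nor a vehicle for the controls, nor strain, sex, feeding state or time of day. Whether each library stands for 1 animal is not said either, and the design text mentions duplicates, so a p-value here measures only how far libraries of a group scatter, and that scatter may be technical. The study's title names the retinal pigment epithelium, CYFIP2 and AKT.

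The transcripts that define the retina were at the detection floor in the compared libraries, and those of hepatocytes led. Sag, rod arrestin, had 12 counts over the 3 young and 2 over the 3 treated libraries together, Pde6b, a subunit of the rod phosphodiesterase, 0 and 0, and Best1, a channel of the pigment epithelium, 0 and 0. Of 29 photoreceptor genes listed, 19 were in the table and 9 passed the filter on low counts, and among these were Gnat1, the rod transducin, at 26.9 to 31.8 CPM in young and 3.93 to 5.25 CPM in treated libraries, and Reep6, an endoplasmic reticulum protein, at 757 to 801 and 873 to 905 CPM. Alb, the gene of serum albumin, took 7.77% of the counts of the young and 9.09% of those of the treated libraries. The libraries are therefore called by their labels below, and gene groups known from liver are used to describe them. CPM (counts per unit of library size, the totals being scaled by TMM factors) compare 1 gene between libraries, not 2 genes with each other.

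Hepatocytes make most proteins of the blood plasma. During infection or injury, interleukin 6 acts through its receptor and the transcription factor STAT3, together with glucocorticoids, to switch on the acute phase genes, among them serum amyloid A, fibrinogen and haptoglobin. The same cells follow the circadian clock, in which BMAL1 (Arntl) with CLOCK or NPAS2 binds E-boxes and drives its own repressors and the output factors DBP and TEF, and they switch between making glucose when food is absent and making fat when it is present.

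Most genes separated the groups. In the quasi-likelihood test of edgeR, with p-values adjusted by Benjamini-Hochberg, 7934 of the 12306 genes differed at the 0.05 threshold, which is 64.5%: 3903 (31.7%) were higher in treated aged and 4031 (32.8%) were lower. A change of at least 2-fold was called for 1891 genes (15.4%), 1167 of them higher (9.48%) and 724 lower (5.88%), and one of at least 4-fold for 262 higher and 178 lower genes. Another 1452 of the called genes differed by less than 1.2-fold. The values of the 2 groups did not overlap for 8248 genes (67.0%). Replicates lay close together, with a biological coefficient of variation of 5.20% in young and 5.45% in treated libraries, and the first principal component of log2 CPM held 75.4% of the variance over the 6 libraries and placed all 3 treated libraries at one end and all 3 young ones at the other. The numbers of higher and lower genes depend on the scaling: with upper-quartile factors 5406 were higher and 2878 lower, with library totals alone 5549 and 2800, and on log2(FPKM + 1) 5363 and 2669. These scalings moved the median over all genes from 0.02 to 0.17, 0.19 and 0.10 on the log2 scale, so differences below about that size have no fixed direction, and list medians are read against the all-gene median of 0.02. Gene length moved with the result as well. Of 5 equal groups of genes by length, the shortest (206 to 1893 bp) had 40.05% higher and 20.7% lower, and the longest (6398 to 114283 bp) 26.7% and 40.8%. With the trend of counts with length removed, 3826 genes were higher and 4092 lower.

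**Figure D1:**
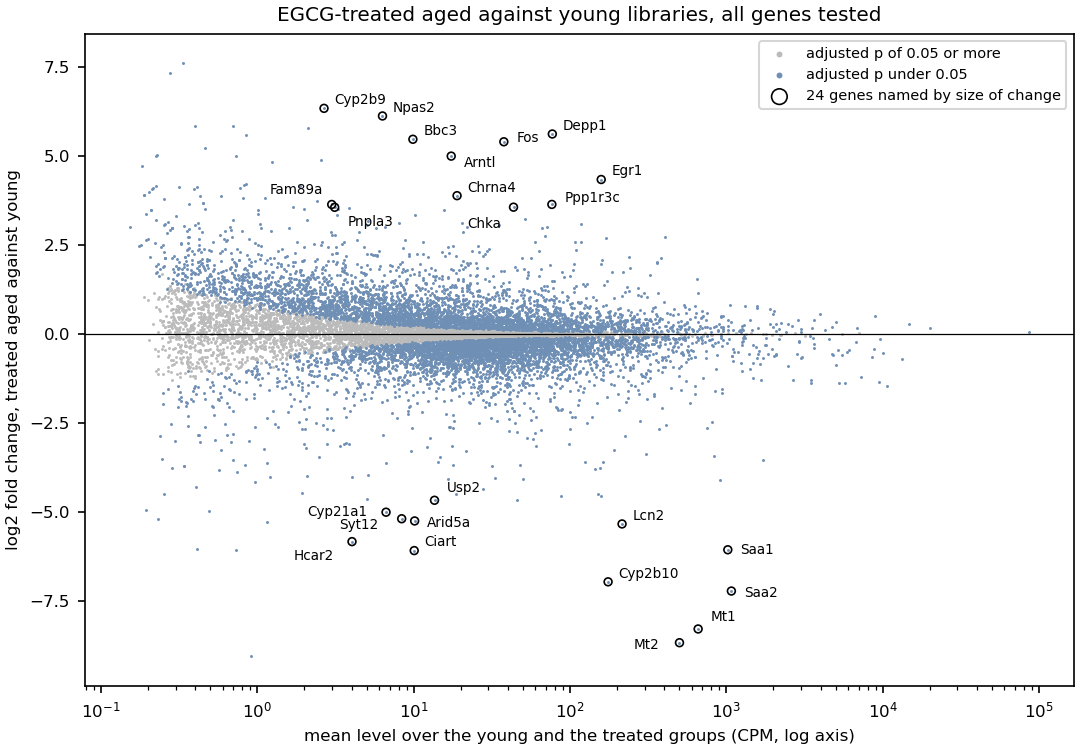
Each point is 1 of the 12306 genes tested, by its mean CPM over the young and treated groups (log axis) and its log2 fold change, treated aged against young; blue points have an adjusted p under 0.05 and circles mark the 24 named genes with the largest changes among those that averaged 5 CPM or more in a group. Called genes lie on both sides of 0, and the lowest circled points, Mt2 at -8.66 and Mt1 at -8.27, are abundant in the young libraries.

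Among genes that averaged 5 CPM or more in a group, the largest decreases were in metallothioneins and acute phase genes, besides Cyp2b10 (-6.95) and Ciart (-6.07), which are described below. Mt1 and Mt2 encode small cysteine-rich proteins that bind zinc and copper, and both are known to be switched on by metals through the factor MTF1, by glucocorticoids and by interleukin 6. Mt2 stood at 1031, 1006 and 961 CPM in the 3 young libraries and at 2.94, 2.3 and 2.16 CPM in the 3 treated ones, a 404-fold difference (log2 fold change -8.66, SE 0.054, adjusted p = 1.7e-54). Mt1 stood at 1265, 1351 and 1326 CPM in young and 4.95, 4.25 and 3.52 CPM in treated libraries (-8.27, SE 0.048, adjusted p = 1.7e-55). Every treated library was far below every young one for both genes. The untreated aged libraries lay between, at 169, 164 and 161 CPM for Mt1 and 106, 96.3 and 98.2 CPM for Mt2, and treated differed from untreated aged by -5.28 and -5.34 (adjusted p = 4.7e-47 and 1.4e-44, a call that 64.4% of genes passed between treated and untreated aged libraries).

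The promoters of the 2 genes are shown because MTF1 binds short metal response elements there. The 250 bases before the RefSeq start of each gene (GRCm38.p6, both genes on the plus strand, Mt2 at chr8:94172368-94172617 and Mt1 at chr8:94178839-94179088) read as follows, with matches to the core TGCACNC or TGCGCNC on either strand in capitals.
Mt2: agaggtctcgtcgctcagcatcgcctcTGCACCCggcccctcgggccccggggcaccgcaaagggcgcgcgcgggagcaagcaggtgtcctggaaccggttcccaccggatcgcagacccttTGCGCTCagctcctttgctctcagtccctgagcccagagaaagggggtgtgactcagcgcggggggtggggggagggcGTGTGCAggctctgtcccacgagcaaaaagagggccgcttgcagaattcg
Mt1: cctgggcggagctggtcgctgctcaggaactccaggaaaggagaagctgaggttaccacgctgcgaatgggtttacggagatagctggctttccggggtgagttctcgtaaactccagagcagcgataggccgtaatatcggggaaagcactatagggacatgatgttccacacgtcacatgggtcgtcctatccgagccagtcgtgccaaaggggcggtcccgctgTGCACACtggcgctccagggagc
The Mt2 window held 3 matches, beginning 223, 128 and 50 bases before the start, and the Mt1 window 1, at 23 bases. The core is short and common: it was found in 21.4% of 32851 RefSeq promoter windows of this length. Counted by gene, in any window of the gene, it was found in 33.5% of the 9877 tested genes that matched a window. In the zinc and metallothionein list it was found in 9 of 18 such genes.

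Of the 21 tested genes of metallothioneins and zinc handling, 14 fell and 3 rose, with a median of -0.31. Slc39a14, a zinc and iron importer induced by interleukin 6, stood at 699, 714 and 687 CPM in young and 116, 121 and 120.0 CPM in treated libraries (-2.56, adjusted p = 3.5e-45), with no overlap. Slc30a5, which carries zinc into the secretory pathway, fell by 1.36. Mt1 and Mt2 were the only tested members that differed by more than Slc39a14.

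Acute phase proteins were lower in treated aged than in young libraries across nearly the whole list: 27 of 29 tested genes fell and 2 rose, 22 of them fell at least 2-fold, and the median was -1.38. The list includes Mt1 and Mt2, described above. Summed over the list, young libraries held 95477 to 96666 CPM and treated ones 39639.7 to 41074 CPM. Saa2, a serum amyloid A gene, stood at 2147, 2175 and 2089 CPM in young and 15.6, 14.9 and 12.8 CPM in treated libraries (-7.21, adjusted p = 1.7e-55). Saa1, its near-identical neighbour, stood at 2022, 2042 and 1968 and 31.8, 29.3 and 30.0 CPM (-6.05, adjusted p = 3e-57); reads of the pair could have been shared or dropped by the authors' counting. Both genes were high in all young libraries and low in all others, with untreated aged libraries at 54.5 to 55.6 CPM for Saa1 and 30.1 to 34.6 CPM for Saa2. Lcn2, lipocalin 2, which binds bacterial siderophores, stood at 432, 422 and 404 CPM in young and 10.3, 9.62 and 11.5 CPM in treated libraries (-5.32), and in untreated aged ones at 33.4 to 34.6 CPM.

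The fibrinogen chains and haptoglobin carried the largest differences in CPM. Fgb, the fibrinogen beta chain, stood at 15637, 15501 and 15445 CPM in young and 5610.0, 5683 and 5863 CPM in treated libraries (-1.44, SE 0.017, adjusted p = 2.3e-44). Fga and Fgg, the other 2 chains, fell by 1.34 and 1.21, and Hp, haptoglobin, the scavenger of free haemoglobin, fell by 1.38. Serpina3k, a protease inhibitor, fell from 16346–16475 to 9753–10623 CPM, and Itih4, an inter-alpha-trypsin inhibitor chain, from 4939–4983 to 2003–2068 CPM. Of genes given here for their role, after their values had been seen, Crp, C-reactive protein, fell by 1.18, Orm1 and Orm2, orosomucoids, by 1.03 and 2.4, and Hamp, the iron hormone hepcidin, was at 880.0, 864 and 810.4 CPM in young and 887, 879.5 and 967 CPM in treated libraries (0.10), a difference within the shift that scaling gives.

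Genes that carry the interleukin 6 signal fell with its targets. Of 19 tested genes of interleukin 6 and STAT3 signalling, 14 fell, 12 of them at least 2-fold, 4 rose, and the median was -1.80. Stat3 itself stood at 357, 368 and 362 CPM in young and 105, 104 and 103 CPM in treated libraries (-1.8, adjusted p = 1.1e-38), and no library of one group reached the other. Cebpb, a partner factor at acute phase promoters, fell by 1.89, Pim3, a kinase induced by STAT3, by 2.34, and Lrg1, a secreted leucine-rich glycoprotein, by 1.66. The receptor chains Il6ra and Il6st and the feedback inhibitor Socs3, given for their role, fell by 2.43, 1.41 and 2.64. Untreated aged libraries had Stat3 at 207 to 218 CPM, between the other groups, but Cebpb at 339 to 341 CPM, next to the 352 to 368 CPM of the young ones.

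The lists of coagulation, complement, and cytokine and NF-kB target genes had smaller median changes than the acute phase list. Single members, such as Il1r1, still fell strongly. Of 24 coagulation and fibrinolysis genes 15 fell and 5 rose (median -0.21; with upper-quartile factors 9 were lower and 8 higher, and with library totals alone 8 and 8), and the 4 that fell at least 2-fold included the 3 fibrinogen chains. Klkb1, plasma prekallikrein, rose from 228–239 to 309–317 CPM (0.41). Of 25 complement genes 17 fell and 6 rose (median -0.14), but with upper-quartile factors 12 were lower and 10 higher (0.02). C3, the central component, stood at 11947, 11978 and 11774 CPM in young and 8287, 8174 and 8249.8 CPM in treated libraries (-0.53), and C9 and C8b, parts of the membrane attack complex, fell by 0.57 and 0.50. Of 22 tested cytokine and NF-kB target genes 13 fell and 5 rose (median -0.35). Il1r1, the interleukin 1 receptor, stood at 301, 288 and 306 CPM in young and 26.8, 24.2 and 23.4 CPM in treated libraries (-3.59, adjusted p = 1.2e-43). Bcl3, an I-kappa-B family regulator, fell by 2.11, and Tnfaip2, a TNF-induced gene, rose by 2.33.

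Targets of the glucocorticoid receptor were lower in 15 and higher in 7 of 22 tested genes (median -1.26), though the list shares Mt1, Mt2 and Lcn2 with those above. Fkbp5, a chaperone of the receptor and its direct target, stood at 109, 108 and 108 CPM in young and 12.8, 12.5 and 11.6 CPM in treated libraries (-3.14, adjusted p = 8.5e-37). Per1 and Tat behaved alike in direction, Tat, tyrosine aminotransferase, with -0.65, but Tsc22d3 (GILZ), another direct target, rose by 0.81, from 41–43.9 to 71.1–77.6 CPM; Tat and Tsc22d3 are given for their role. The list was therefore not uniform. In untreated aged libraries against the same young ones, which both comparisons share, the median of these genes was -0.02.

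**Figure D2:**
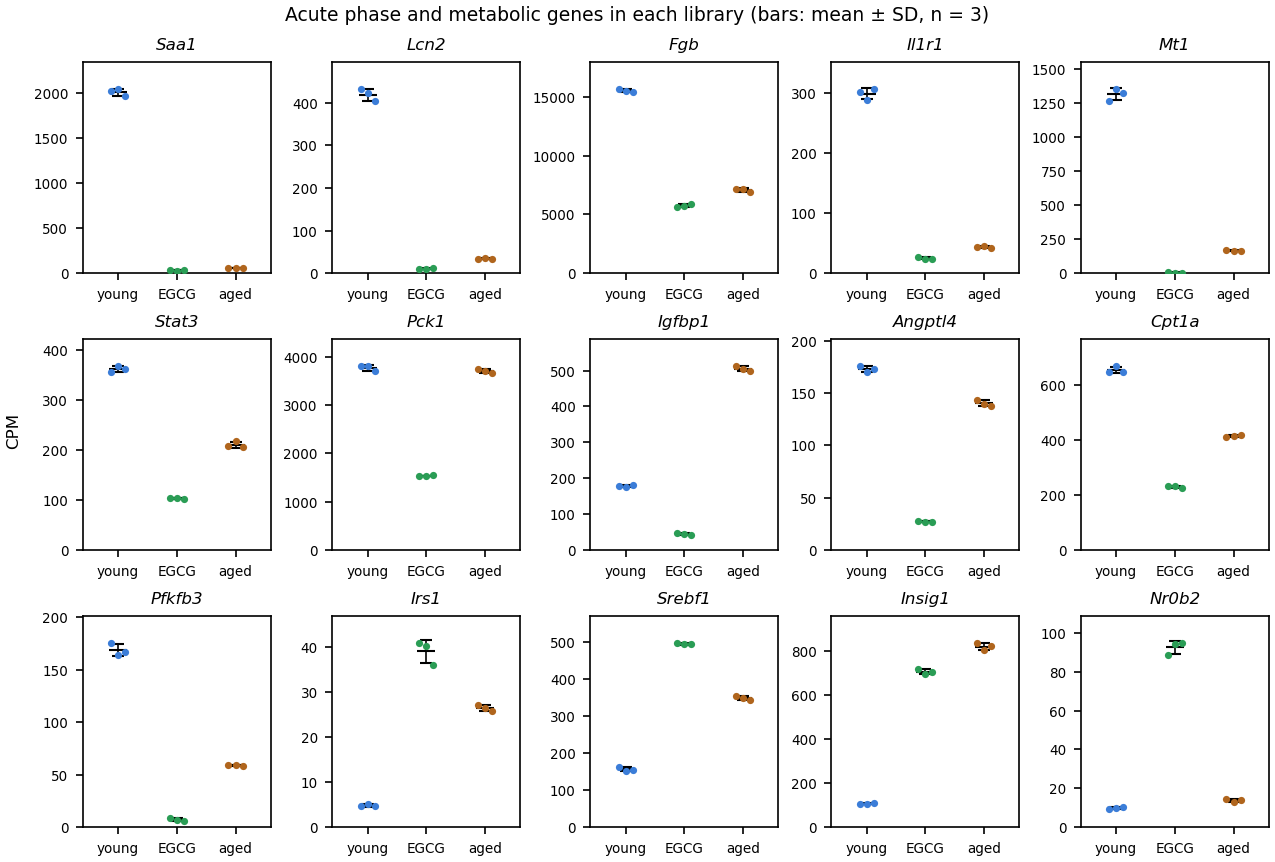
Acute phase, metallothionein and metabolic genes by group; each point is 1 library, the vertical axis is CPM from 0, and bars are the mean ± SD of 3 libraries. Young libraries are the highest group for Saa1, Lcn2, Fgb, Il1r1, Mt1, Stat3 and Cpt1a, and treated ones for Irs1, Srebf1 and Nr0b2.

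Clock genes separated the groups with large changes in opposite directions. The activator Arntl, the gene of BMAL1, stood at 1.27, 0.645 and 1.23 CPM in young and 32.4, 34.6 and 34.1 CPM in treated libraries (5.0, SE 0.13, adjusted p = 1.8e-31). Npas2, a partner of BMAL1, stood at 0.0955, 0.246 and 0.181 CPM and 13.8, 11.6 and 11.9 CPM; with 17 counts over the 3 young libraries and none of them at 10, it passed the filter through the treated libraries and had to differ, so its values are a description. Both were at or below 1.27 CPM in every young library and higher in every treated one. Rora, an activator of Arntl, rose from 26.9–30.6 to 65.7–66.6 CPM (1.22), and Clock and Cry1, given for their role, rose by 0.41 and 0.93.

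Clock output genes were low in treated libraries. Dbp, a PAR-bZIP factor, stood at 54.2, 51 and 54.4 CPM in young and 2.23, 3.09 and 2.53 CPM in treated libraries (-4.34, adjusted p = 1.2e-36). Per1, a period repressor, stood at 64, 63.4 and 60.5 and 5.09, 3.39 and 2.97 CPM (-4.03, adjusted p = 1.7e-34), and Ciart, a repressor of the BMAL1 complex, at 17.7, 21 and 20.9 and 0.218, 0.325 and 0.333 CPM (-6.07, adjusted p = 3e-29). None of the 3 showed any overlap. Untreated aged libraries were close to young ones for Dbp (50.8 to 53.6 CPM) and Per1 (59.7 to 63.8 CPM), and treated differed from untreated aged by -4.31 and -4.02. Tef, a second PAR-bZIP factor, fell from 132–142 to 30.1–31.8 CPM (-2.13), Usp2, a deubiquitinase with a strong daily rhythm, from 24.5–27.7 to 0.943–1.17 CPM (-4.66), and Lpin1, a phosphatidate phosphatase, from 551–570.2 to 52.6–56.4 CPM (-3.37).

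Over the list of PER, REV-ERB and PAR-bZIP output genes 13 of 17 tested fell and 4 rose, with a median of -1.43, and over clock activators and repressors 7 of 15 rose, Npas2 among them, and 5 fell, with a median of 0.11. Both lists hold Ciart. Members did not move together: Per3 fell by 3.61 and Nr1d2 (REV-ERB beta) by 1.43, but Nr1d1 (REV-ERB alpha) rose by 0.59; these 3 are given for their role. Bhlhe40, the repressor DEC1, stood at 271, 259.6 and 263 CPM in young, 75.7, 79.1 and 79.4 CPM in treated and 969, 995 and 988 CPM in untreated aged libraries. Treated libraries were thus below young ones (-1.76) and untreated aged ones above both.

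Promoters of Ciart, Per1 and Tef are shown because each fell and holds the E-box CACGTG, the letters that the BMAL1 complex is known to bind. They are the 250 bases before the RefSeq start (GRCm38.p6; Ciart chr3:95882229-95882478 on the minus strand, Per1 chr11:69098699-69098948 and Tef chr15:81802423-81802672 on the plus strand, the last 2 from genes with 2 starts in the table), with the E-box in capitals.
Ciart: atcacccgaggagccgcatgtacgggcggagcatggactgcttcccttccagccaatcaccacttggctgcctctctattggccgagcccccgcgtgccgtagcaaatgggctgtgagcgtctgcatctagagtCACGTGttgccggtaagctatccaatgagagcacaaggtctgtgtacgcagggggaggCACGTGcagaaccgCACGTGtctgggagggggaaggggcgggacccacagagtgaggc
Per1: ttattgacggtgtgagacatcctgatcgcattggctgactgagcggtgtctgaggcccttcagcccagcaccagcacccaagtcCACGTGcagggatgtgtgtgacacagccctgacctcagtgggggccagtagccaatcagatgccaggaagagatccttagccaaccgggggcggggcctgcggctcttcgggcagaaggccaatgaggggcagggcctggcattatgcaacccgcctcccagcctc
Tef: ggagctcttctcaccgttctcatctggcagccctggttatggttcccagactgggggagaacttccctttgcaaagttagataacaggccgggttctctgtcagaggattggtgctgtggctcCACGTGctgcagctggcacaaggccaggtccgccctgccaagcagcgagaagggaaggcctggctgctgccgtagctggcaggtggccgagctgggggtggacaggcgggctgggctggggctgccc
Ciart held 3 E-boxes, beginning 116, 58 and 44 bases before the start, Per1 held 1 at 166 and Tef 1 at 127. CACGTG, which is the same on both strands, was found in 6.02% of the 32851 windows. Counted by gene, in any window of the gene, it was found in 9.90% of the 9877 tested genes that matched a window. It was found in 3 of 15 matched clock output genes and in 3 of 11 matched activators and repressors, Ciart being counted in both.

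**Figure D3:**
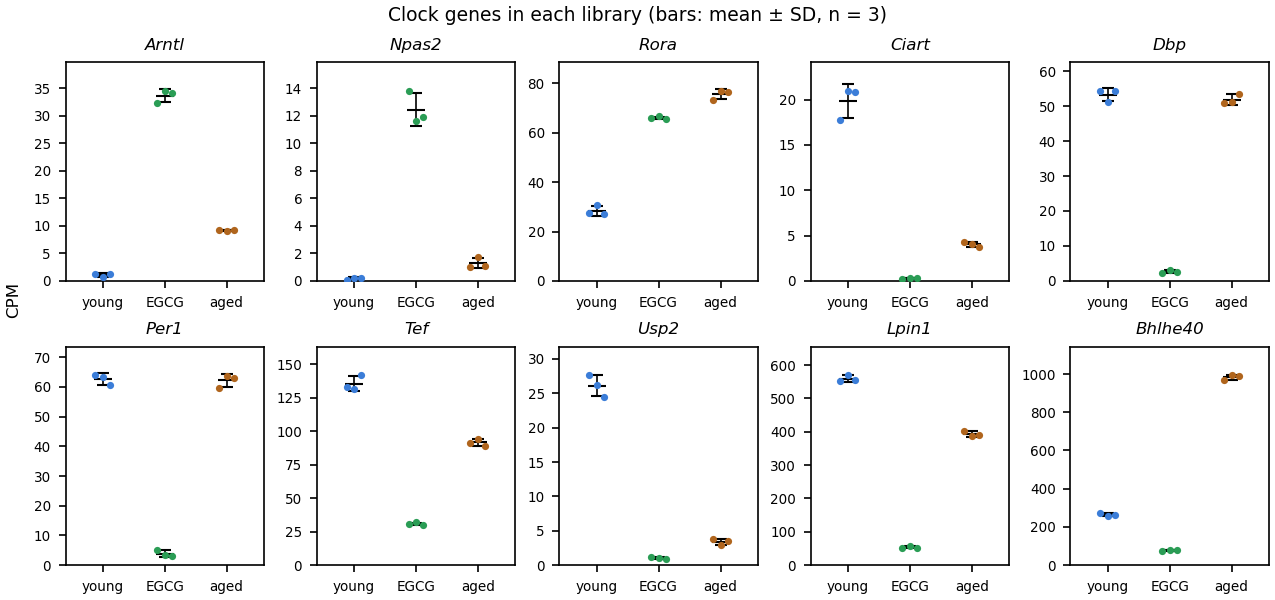
Clock and clock-driven genes by group; each point is 1 library, the vertical axis is CPM from 0, and bars are the mean ± SD of 3 libraries. Arntl and Npas2 are highest in the treated group, while Ciart, Dbp, Per1, Tef, Usp2, Lpin1 and Bhlhe40 are lowest there.

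Genes of glucose handling were lower more often than higher, and those of fatty acid and cholesterol synthesis higher more often than lower. Of 23 tested genes of gluconeogenesis and glycolysis 17 fell and 4 rose (median -0.63). Pck1, the first committed enzyme of gluconeogenesis, stood at 3799.9, 3801 and 3697 CPM in young and 1528, 1531 and 1544 CPM in treated libraries (-1.3, adjusted p = 2.5e-41), with untreated aged libraries at 3666 to 3749 CPM. Pfkfb3, which makes the glycolytic activator fructose 2,6-bisphosphate, fell from 164–175 to 5.83–9.01 CPM (-4.54). Pck1 showed no overlap between the groups.

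Genes of insulin signalling and FOXO factors moved both ways. Of 31 tested 18 fell and 8 rose (median -0.33). Igfbp1, a FOXO target that insulin represses, stood at 179, 176 and 183 CPM in young, 47.7, 45.8 and 43.5 CPM in treated and 512, 504 and 499.5 CPM in untreated aged libraries (treated against young -1.97, adjusted p = 1.8e-38). Irs1, an insulin receptor substrate, rose from 4.6–5.13 to 36.1–40.8 CPM (3.01). Depp1, known as a FOXO target, rose from 2.17–3.68 to 145–156 CPM (5.62), and Arrdc3, an alpha-arrestin, from 14.9–16.3 to 120.0–130.0 CPM (3.0), both below the 271 to 274 and 625 to 641 CPM of untreated aged libraries. Insr, the insulin receptor, given for its role, fell by 0.77. Of 17 glycogen genes 5 rose and 4 fell (median 0.15): Ppp1r3c, which targets protein phosphatase 1 to glycogen, rose by 3.64, and Gys2, the liver glycogen synthase, fell by 1.17.

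Fatty acid synthesis was higher in 15 and lower in 6 of 23 tested genes, with a median of 0.41. Srebf1, the gene of the lipogenic factor SREBP1, stood at 163, 152 and 154 CPM in young and 496, 493 and 494 CPM in treated libraries (1.66, adjusted p = 1.2e-38). Scd1, the stearoyl-CoA desaturase, was among the genes with the largest gain in CPM, from 7254–7401 to 10371–10492 CPM (0.51). Acss2, acetyl-CoA synthetase, rose by 1.17 and Fasn, fatty acid synthase, given for its role, by 0.78, while Thrsp, a lipogenic regulator, fell by 1.54 and Acaca, acetyl-CoA carboxylase, by 0.85. Lpin1, given above with the clock output genes, is also in this list and fell the most (-3.37). Pnpla3, a lipid droplet enzyme and SREBP1 target, rose from 0.368–0.637 to 5.41–6.01 CPM (3.56), and Angptl8, an insulin-induced hormone, by 2.6.

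Cholesterol synthesis and uptake was higher in 21 and lower in 2 of 25 tested genes (median 0.70). Insig1, which retains the sterol sensor in the endoplasmic reticulum, stood at 107, 104 and 109 CPM in young and 719, 693 and 704 CPM in treated libraries (2.72, adjusted p = 5.9e-47). Hmgcs1, Sc5d and Fdft1, enzymes of the pathway, rose by 2.02, 1.56 and 1.4. Summed over the list, treated libraries held 5828 to 5859 CPM, young ones 3257 to 3267 CPM and untreated aged ones 6310.5 to 6379 CPM.

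Genes of fat burning were lower more often than higher. Among 35 tested PPAR-alpha targets and genes of fatty acid oxidation and ketogenesis 21 fell and 10 rose (median -0.28). Angptl4, an inhibitor of lipoprotein lipase, stood at 176, 170.3 and 173 CPM in young and 28.2, 27.2 and 26.8 CPM in treated libraries (-2.66, adjusted p = 1.5e-40). Cpt1a, which admits fatty acids to mitochondria, stood at 649, 668 and 649 and 231, 232 and 226 CPM (-1.51). Pdk4, the kinase that shuts pyruvate dehydrogenase, was an exception with 2.17, 3.16 and 2.41 CPM in young and 28.1, 29.9 and 28.3 CPM in treated libraries (3.48). Genes of lipid droplets and triglyceride turnover were split, with 10 higher and 9 lower of 22 tested (median 0.10, which became -0.06 with the length trend removed). Of the 22, 1 had no young library with 10 counts. Pnpla2, the triglyceride lipase ATGL, fell by 1.51, Plin2, a droplet coat protein, by 0.77, and Mttp, which loads lipoproteins, by 0.73, while Fitm1, a membrane protein of fat storage, rose by 1.48.

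Bile acid genes moved both ways, with 12 of 25 higher and 9 lower (median 0.11). Nr0b2, the gene of the repressor SHP, stood at 9.58, 9.7 and 10.4 CPM in young, 88.6, 94.3 and 94.6 CPM in treated and 14.6, 12.9 and 13.9 CPM in untreated aged libraries (treated against young 3.22, adjusted p = 4.8e-36). Cyp7a1, the rate-limiting enzyme of bile acid synthesis, stood at 67.8, 74.8 and 75.3 CPM in young and 24.2, 24.9 and 24.4 CPM in treated libraries (-1.57, adjusted p = 1.9e-27). Treated libraries were the highest for the repressor and the lowest for the enzyme. Nr1h4, the bile acid receptor FXR, fell by 0.95, and Hsd3b7, a later enzyme, rose by 0.90.

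**Figure D4:**
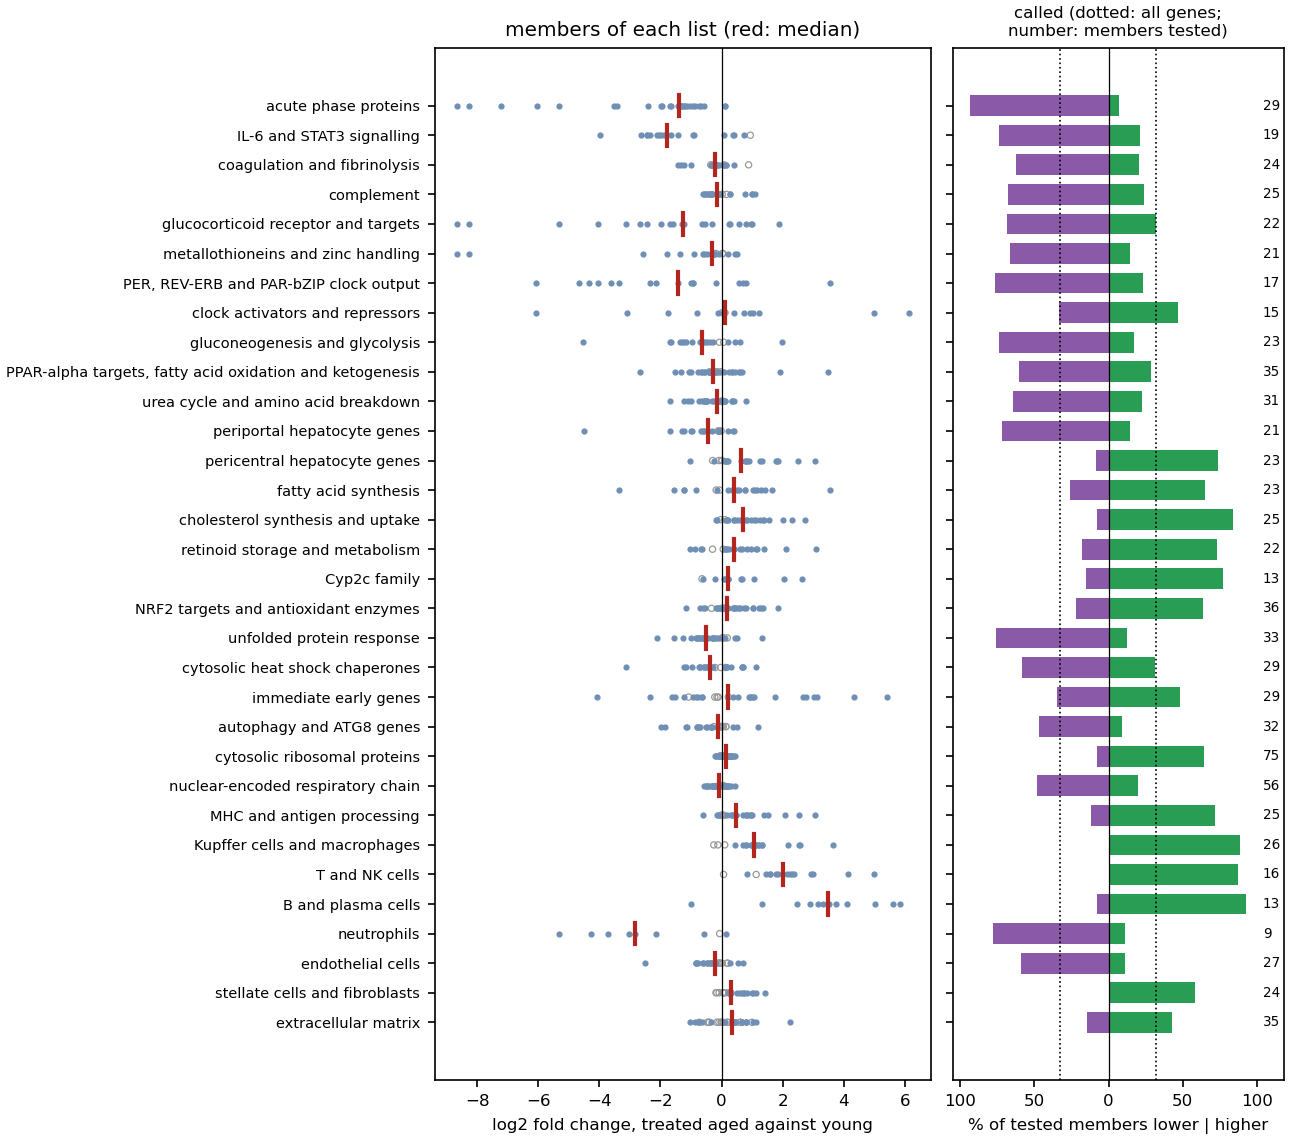
Left: log2 fold change, treated aged against young, of each tested member of 32 gene lists; filled points have an adjusted p under 0.05, open ones do not, and red bars are medians. Right: percent of tested members called lower (purple) and higher (green), with the number of tested members at the right and dotted lines at the shares over all genes, 32.8% and 31.7%. Acute phase genes and clock output lie to the left, and cholesterol synthesis and macrophage genes to the right; 8 of the 16 T and NK cell and 10 of the 13 B and plasma cell genes passed the filter through the treated libraries and had to lie to the right.

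Genes of the periportal zone, the part of the liver lobule that receives blood first, were lower more often than higher, and those of the pericentral zone higher more often than lower. Of 31 genes of the urea cycle and amino acid breakdown 20 fell and 7 rose (median -0.15), but with upper-quartile factors 14 were lower and 13 higher (0.01) and on log2(FPKM + 1) 13 and 15 (0.03), so the list has no fixed direction. Cps1, the entry enzyme of the urea cycle, stood at 6474, 6546 and 6586 CPM in young and 4419.6, 4321 and 4357 CPM in treated libraries (-0.58), Asl, argininosuccinate lyase, fell by 1.23, and Sds, serine dehydratase, by 1.68. Of 21 periportal genes, which share Asl, Sds and Pck1, 15 fell and 3 rose (median -0.44; 12 and 7 with upper-quartile factors), whereas of 23 pericentral genes 17 rose and 2 fell (median 0.62). Avpr1a, a vasopressin receptor of pericentral cells, stood at 7.2, 6.94 and 8.37 CPM in young and 66.3, 62 and 59.4 CPM in treated libraries (3.06, adjusted p = 2.2e-33), and the Wnt targets Lgr5 and Axin2, given for their role, rose by 1.81 and 1.8. Glul, glutamine synthetase, the strictest pericentral marker, did not pass, with 1347, 1329 and 1348 CPM in young and 1349, 1316 and 1350.3 CPM in treated libraries, and Cyp2e1 differed by 0.17. Of 17 genes of serine, one-carbon and asparagine synthesis 12 rose and 4 fell (median 0.58), led by Trib3, a pseudokinase induced by ATF4 (2.53), and Atf5 (1.21), with Atf4 at 0.43. Of the 17, 1 had no treated library with 10 counts.

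Drug-metabolising genes held the widest range. Cyp2b10, the classical target of the receptor CAR, stood at 348, 354 and 339 CPM in young, 3.59, 2.74 and 2.08 CPM in treated and 1.2, 1.27 and 1.03 CPM in untreated aged libraries (treated against young -6.95, adjusted p = 8.7e-48). Its relative Cyp2b9, known to be higher in females, had 6 counts over the young and 578 over the treated libraries, a ratio of 85.4 with an exact 95% interval of 39.0 to 234 that covers counting error only. With no young library at 10 counts, Cyp2b9 passed the filter through the treated libraries and had to differ, so its values are a description. Reads of Cyp2b9 and Cyp2b10, which are similar, could have been split. Alas1, which starts haem synthesis, fell from 1712–1738 to 102–103 CPM (-4.08) and Por, the electron donor of the cytochromes, from 1290.2–1296 to 206–215 CPM (-2.63). Of the 19 tested genes of the CAR and PXR list 11 fell and 7 rose, Cyp2b9 among them (median -0.23), and Cyp3a25 rose by 1.17. In the Cyp2c family 10 of 13 tested rose and 2 fell (median 0.22), Cyp2c40 from 7.48–8.91 to 32.8–34.2 CPM (2.05), while Cyp2c29 fell by 0.60.

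Antioxidant genes were higher more often than lower, and conjugation genes moved both ways. Of 36 tested NRF2 targets and antioxidant enzymes 23 rose and 8 fell (median 0.16, about the size of the scaling shift). Gclc, the catalytic subunit that limits glutathione synthesis, stood at 111, 99.6 and 107 CPM in young and 382, 385 and 374 CPM in treated libraries (1.85, adjusted p = 1e-37). The glutathione transferases Gstm1, Gstm2, Gstm3 and Gsta3 rose by 0.72, 1.06, 1.29 and 0.79, and Gstp1 fell by 0.59. Of 38 phase II genes 17 rose and 13 fell (median 0.04), and Nnmt, nicotinamide N-methyltransferase, fell by 2.12. With upper-quartile factors 21 phase II genes were higher and 8 lower, and with the length trend removed 16 and 14.

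Retinoid genes, which serve vitamin A storage in liver and the visual cycle in the eye, were higher in 16 and lower in 4 of 22 tested genes (median 0.40). Cyp26a1, the retinoic acid hydroxylase that retinoic acid itself induces, stood at 24.5, 23.4 and 25.6 CPM in young, 216, 213 and 203 CPM in treated and 45.5, 43.4 and 43.2 CPM in untreated aged libraries (treated against young 3.1, adjusted p = 3.2e-41). Dhrs3, which turns retinal back to retinol, rose from 59.6–61.5 to 256–264 CPM (2.1), and Rdh11 and Adh1, 2 retinol dehydrogenases, rose by 1.17 and 0.66.

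Genes that depend on growth hormone pulses moved both ways, with 13 higher and 13 lower of 28 tested (median -0.17). Of the 28, 2 had no young library and 1 no treated library with 10 counts. Hsd3b5, a male-biased steroid reductase, rose from 42.9–46 to 291–296 CPM (2.71), Elovl3, a fatty acid elongase, from 140.5–143 to 599–634 CPM (2.13), and Bcl6, a repressor of female-biased genes, from 30.0–31.8 to 112–124 CPM (1.93). Major urinary proteins, a family of near-identical genes whose reads could have been split, were higher in 6 and lower in 7 of 19 tested (median 0.12). Mup20 stood at 2844, 2489.8 and 2122 CPM in young and 1584, 1417 and 2044 CPM in treated libraries (-0.56), with wide spread in both groups, and summed over the family young libraries held 16193 to 17734 CPM, treated ones 14832 to 16029.6 CPM and untreated aged ones 7687 to 7807 CPM. Of 28 hepatocyte transcription factors 16 fell and 11 rose (median -0.36), and Onecut1 (HNF6) fell from 30.1–32.8 to 3.24–4.25 CPM (-3.14). Among hepatokines, 15 of 28 fell and 10 rose, and Nrg4, a neuregulin, fell from 86.2–90.7 to 2.64–4.25 CPM (-4.64).

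Immediate early genes, which cells switch on within minutes of a stimulus, were split, with 14 of 29 tested higher and 10 lower (median 0.22). Of the 29, 1 had no young library with 10 counts. Fos stood at 1.81, 1.9 and 1.5 CPM in young, 72.5, 74.2 and 74.3 CPM in treated and 36.6, 34.9 and 37.2 CPM in untreated aged libraries (treated against young 5.4, adjusted p = 5.3e-40). Egr1, a zinc finger factor, stood at 14.8, 14.2 and 15.6 and 299, 316 and 289 CPM in young and treated libraries (4.34), and Ier2 rose by 2.76. For these 3 genes the treated libraries were the highest group. Jun and Nr4a1, given for their role, rose by 1.04 and 3.01 but stayed below untreated aged libraries (551 to 576 and 51.6 to 53 CPM against 128 to 134 and 10.7 to 12.4 CPM), and Gadd45g, a stress gene, fell from 90.0–98.1 to 5.04–6.1 CPM (-4.06). Bbc3, the gene of the apoptosis inducer PUMA, rose from 0.318–0.602 to 19.2–19.6 CPM (5.47), while p53 targets and senescence genes as a list had 8 higher and 9 lower of 26 (median 0.00).

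Protein folding genes were lower more often than higher. Of 33 unfolded protein response genes 25 fell and 4 rose (median -0.49). Herpud1, an endoplasmic reticulum degradation factor, stood at 768, 749 and 764 CPM in young and 256, 263 and 258 CPM in treated libraries (-1.55, adjusted p = 4e-40). Creld2 and Dnajb9, targets of this response, fell by 2.12 and 1.25, Xbp1, its transcription factor, by 1.02, and Hspa5 (BiP), given for its role, by 0.81. Of 29 cytosolic heat shock chaperones 17 fell and 9 rose (median -0.38): Hspa8, the constitutive HSP70, fell by 0.97, Hspb8 by 1.18 and Bag3 by 1.23. The inducible Hspa1a, given for its role, did not pass, with 1.31, 2.3 and 1.41 CPM in young and 1.77, 1.6 and 1.55 CPM in treated libraries against 120.1, 121 and 112 CPM in untreated aged ones. Of 32 autophagy genes 15 fell and 3 rose (median -0.13), but 14 were lower and 12 higher with upper-quartile factors (0.03), so this list has no fixed direction either. Ulk1, the initiating kinase, fell from 175–179 to 46.9–51.3 CPM (-1.84), Atg14 fell by 1.99 and Map1lc3b (LC3B) fell by 1.13. Of 37 lysosomal genes 21 fell and 9 rose (median -0.09), which turned to 12 lower and 18 higher with upper-quartile factors (0.07).

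Macrophage genes were higher in treated aged than in young libraries. Of 26 Kupffer cell and macrophage genes, all tested, 23 rose, 2 of the 26 having no young library with 10 counts, and 0 fell (median 1.06), and the summed level of the list was 237 to 242 CPM in young, 467 to 486 CPM in treated and 1177 to 1197 CPM in untreated aged libraries. In bulk RNA, fewer cells of a type and less RNA per cell cannot be told apart. Mpeg1, a pore-forming protein of macrophages, stood at 42.1, 39.6 and 42.8 CPM in young and 89.8, 87.3 and 89.9 CPM in treated libraries (1.1, adjusted p = 5.9e-26). Lyz2, lysozyme, stood at 24.9, 25 and 24.8 and 53.3, 50.5 and 55.3 CPM (1.09), and Marco, a scavenger receptor, at 2.8, 4.15 and 3.1 and 15.3, 16.3 and 14.3 CPM (2.19). For all 3 the treated libraries lay above the young and below the untreated aged ones, which had 169 to 176, 155 to 160.3 and 60.3 to 62.9 CPM. Cd5l, a Kupffer cell protein, and Csf1r, the receptor for macrophage growth factor, the latter given for its role, rose by 1.19 and 1.02.

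Lymphocyte genes were low, and many had under 10 counts in each young library. Of the 16 B and plasma cell genes counted, 13 were tested, of which 12 were higher and 1, Xbp1, which hepatocytes also express, was lower, and 10 of the 13 had no young library with 10 counts, so they entered through the treated libraries and had to differ. The summed level of the list, nearly all of it Xbp1, was 425 to 427 CPM in young and 223 to 225 CPM in treated libraries. Cd79a, a chain of the B cell receptor, had 3 counts over the young and 182 over the treated libraries, a ratio of 53.8 (exact 95% interval 18.1 to 263, counting error only). Its treated values of 0.98, 2.55 and 1.44 CPM were uneven, and untreated aged libraries had 1.07, 0.789 and 0.431 CPM. Jchain, the joining chain of plasma cells, rose from 0.0903–0.614 to 4.25–4.71 CPM (3.75). Of the 22 T and NK cell genes counted, 16 were tested, 8 of them with no young library at 10 counts; 14 were higher and 0 lower, and the summed level was 6.08 to 7.07 CPM in young, 16.2 to 18.4 CPM in treated and 15.9 to 18.7 CPM in untreated aged libraries. Cd3d, a chain of the T cell receptor complex, had 1 count over the young and 48 over the treated libraries, a ratio of 42.5 (7.28 to 1714). It is 1 of the 8 that passed the filter through the treated libraries and had to differ.

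Neutrophil genes were lower. Of the 15 counted, 9 were tested, 7 fell and 1 rose. Of the 9, 2 had no treated library with 10 counts, so they passed the filter through the young libraries and had to differ. The summed level was 570.5 to 609.5 CPM in young, 185 to 201 CPM in treated and 218 to 223 CPM in untreated aged libraries, most of it from Lcn2, also an acute phase gene of hepatocytes. Among defining granule and surface genes, Camp had 0 counts in both compared groups and Ly6g had 3 counts in young and 0 in treated libraries. S100a9, a calprotectin chain, stood at 7.26, 6.14 and 6.26 CPM in young and 1.01, 0.813 and 0.555 CPM in treated libraries (-3.04, adjusted p = 4e-17), with untreated aged libraries at 6.71, 5.98 and 7.47 CPM. S100a8, the other chain, fell by 2.15. Cxcr2, the neutrophil chemokine receptor and 1 of the 2 genes that had to differ, had 75 counts in young and 4 in treated libraries. The ratio of Cxcr2 was 0.0473 (0.0126 to 0.126, counting error only), and its values are a description. Its ligand Cxcl1 fell from 45.7–49.9 to 13.5–14.6 CPM (-1.76). Of 25 tested genes of the chemokine and receptor list, which does not hold Cxcr2, 14 rose and 1, Cxcl1, fell (median 0.77). Of the 25, 2 had no young library with 10 counts. Cxcl9, which interferon gamma induces, stood at 7.13, 7.68 and 7.46 CPM in young and 17.4, 19.1 and 18.6 CPM in treated libraries (1.31).

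Of 25 antigen presentation genes 18 rose and 3 fell (median 0.46; 2 of the 25 had no young library with 10 counts). Cd74, the class II invariant chain, stood at 43.2, 37 and 40.5 CPM in young and 72, 76.7 and 82.4 CPM in treated libraries (0.94, adjusted p = 1.9e-21), and H2-Ab1 and H2-Eb1, class II chains, rose by 0.85 and 0.98. In untreated aged libraries Cd74 was at 244 to 250.5 CPM. Of 32 interferon-stimulated genes 12 rose and 6 fell (median 0.24), none of them 2-fold, led by the factor Irf1 (0.99). The part of cell numbers in these results was not tested.

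**Figure D5:**
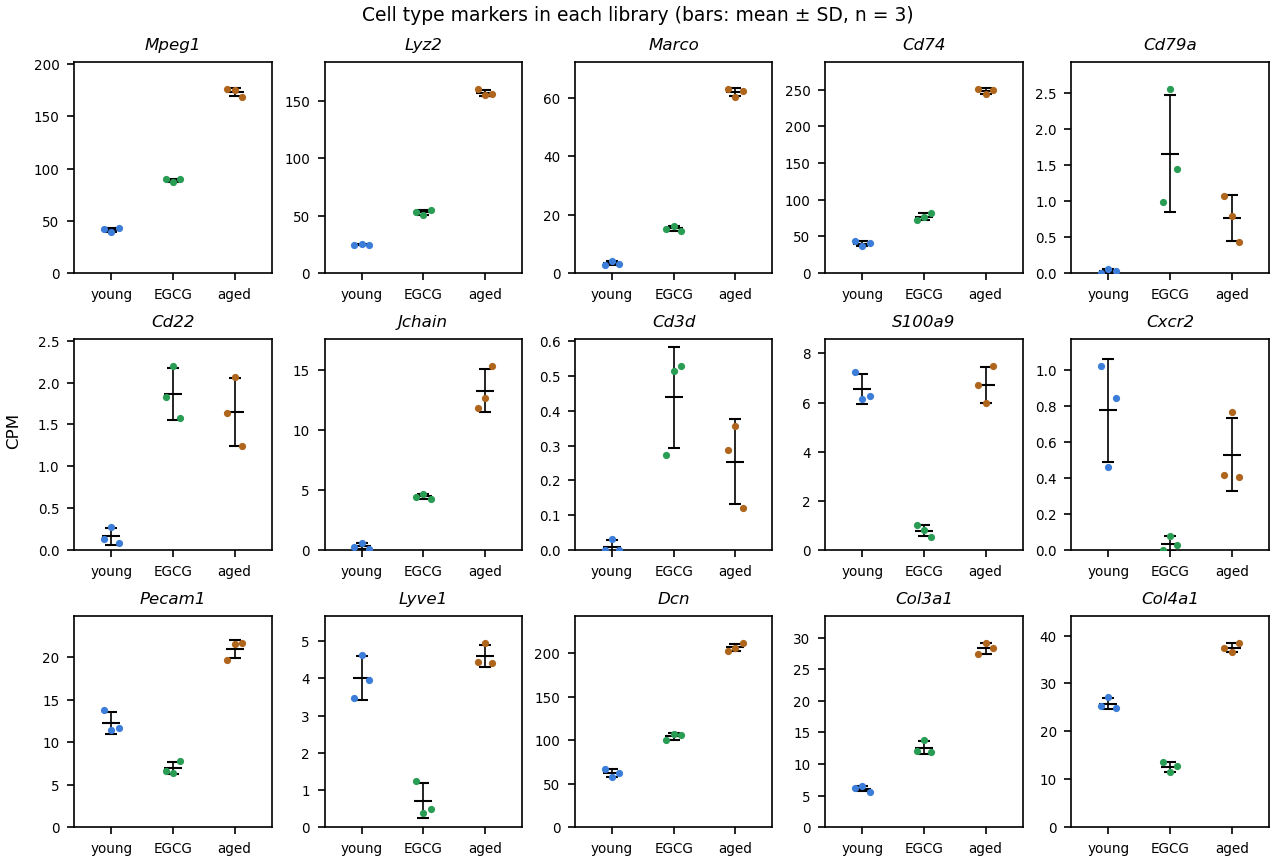
Marker genes of macrophages, B, T and plasma cells, neutrophils, endothelium, fibroblasts and matrix by group; each point is 1 library, the vertical axis is CPM from 0, and bars are the mean ± SD of 3 libraries. Treated libraries lie between young and untreated aged ones for Mpeg1, Lyz2, Marco, Cd74, Jchain, Dcn and Col3a1, and below both for S100a9, Pecam1, Lyve1 and Col4a1.

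Endothelial genes were lower more often than higher, by an amount that depends on the scaling. Of 27 tested 16 fell and 3 rose (median -0.23; 9 and 5 with upper-quartile factors, -0.07), with a summed level of 332 to 337 CPM in young, 296 to 306 CPM in treated and 712 to 732 CPM in untreated aged libraries. Pecam1, the adhesion molecule CD31, stood at 13.8, 11.4 and 11.6 CPM in young and 6.64, 6.42 and 7.77 CPM in treated libraries (-0.82, adjusted p = 3.4e-09). Lyve1, a hyaluronan receptor of sinusoidal and lymphatic endothelium, stood at 3.47, 4.64 and 3.94 and 1.25, 0.379 and 0.499 CPM (-2.49), and Plvap, a fenestral diaphragm protein, rose by 0.54. Of 24 stellate cell and fibroblast genes 14 rose and 0 fell (median 0.29, summed level 246 to 264 CPM in young and 356 to 369 CPM in treated libraries), with Dcn, decorin, from 57.7–67.1 to 100.4–107 CPM (0.75) and Col3a1, collagen III, from 5.63–6.45 to 11.9–13.8 CPM (1.04). Of 35 extracellular matrix genes 15 rose and 5 fell (median 0.35), although the summed level was lower, at 4353 to 4456 CPM in young and 3037 to 3122 CPM in treated libraries: Nid2, a basement membrane linker, rose by 2.24, while Col4a1, basement membrane collagen, fell by 1.03 and Fn1, fibronectin, which hepatocytes also secrete, by 0.89. Ccn1, a YAP target, rose from 3.16–4.84 to 35.6–37.2 CPM (3.14), and Tgfbr2 and Tead1, a TGF-beta receptor and a partner of YAP, fell by 2.07 and 2.25.

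Housekeeping machinery differed by small amounts. Of 75 cytosolic ribosomal protein genes 48 rose and 6 fell (median 0.14), with none changed 2-fold, but with the length trend removed 14 were higher and 29 lower (-0.03). Rpl11 stood at 165, 155 and 162 CPM in young and 206, 196 and 214 CPM in treated libraries (0.35). Of 56 nuclear-encoded respiratory chain genes 27 fell and 11 rose (median -0.08), which turned to 13 lower and 25 higher with upper-quartile factors (0.08), with Atp5b and Atp5a1, ATP synthase subunits, and Sdha of complex II each lower by 0.49. Of 78 mitochondrial ribosomal proteins 19 rose and 16 fell (median 0.01), against 44 higher and 8 lower with upper-quartile factors and 11 and 32 with the length trend removed. Of 38 proteasome subunits 18 rose and 8 fell (median 0.10), against 29 higher and 6 lower with upper-quartile factors and 9 higher and 15 lower with the length trend removed; among them was Psme1, an activator induced by interferon (0.65).

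Of the genes in the study's title, Akt1 and Akt2 fell, and Cyfip2 did not pass the test. Cyfip2, part of the WAVE complex that drives actin branching, stood at 0.955, 1.07 and 0.963 CPM in young, 1.06, 1.16 and 1.17 CPM in treated and 3.2, 3.31 and 3.81 CPM in untreated aged libraries. Treated and young values overlapped and did not pass (0.18, SE 0.29, adjusted p = 0.6), whereas treated against untreated aged differed by -1.6 (adjusted p = 7.1e-07). Its paralog Cyfip1 fell from 45.7–54.3 to 37.7–39.6 CPM (-0.34, adjusted p = 1.2e-06). Of 16 tested WAVE complex genes 4 rose and 5 fell (median -0.04; 6 and 2 with upper-quartile factors), with Nckap1l, the blood cell form of one of its subunits, higher by 1.48. Akt1, a kinase of growth and survival signalling, stood at 80.6, 75.9 and 72.1 CPM in young and 43, 43.1 and 43.9 CPM in treated libraries (-0.81, adjusted p = 1.3e-18), and Akt2, the isoform known for insulin signalling, fell by 0.39.

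Other genes with the largest changes came from no single group. Chrna4, a subunit of the nicotinic acetylcholine receptor, rose from 2.0–3.12 to 33–38.2 CPM (3.89), Chka, choline kinase, from 5.79–7.37 to 78.7–81 CPM (3.57), and Fam89a from 0–0.782 to 5.14–5.93 CPM (3.64). Among choline and phospholipid genes 13 of 23 rose and 8 fell, the lower ones led by Mfsd2a, a transporter of lysophosphatidylcholine (-4.49), and Gpcpd1, a glycerophosphodiesterase (-3.24). Hcar2, the niacin receptor, stood at 8.18, 7.19 and 8.4 CPM in young and 0.218, 0.0271 and 0.166 CPM in treated libraries. No treated library reached 10 counts, so Hcar2 passed the filter through the young ones and had to differ. Lower values were also called for Arid5a, which stabilises interleukin 6 messenger RNA (-5.24), Syt12, a synaptotagmin (-5.18), and Cyp21a1, a steroid hydroxylase (-4.99). Cyp21a1 was as low in untreated aged libraries, at 0.286 to 0.407 CPM (treated against untreated aged 0.19, adjusted p = 0.64).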

How the data were processed

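RNA from 9 mouse libraries labelled retina was purified with a Qiagen RNeasy mini plus kit and sequenced after a SMARTER mRNA-seq preparation, per the labels' protocols. The authors deposited whole-number counts per gene symbol and FPKM values of the same genes. The builds GRCm38 and mm10 are named in the submitters' processing notes, while aligner, counter, annotation and strandedness were not given in the sources used here. Counts summed to 34240500 to 35910889 in young, 35033449 to 35439121 in treated and 36946308 to 39922044 in untreated aged libraries. The deposited FPKM values served only as an alternative.

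Groups were taken from the titles. Counts were tested with edgeR 4.0.16 (R 4.3.3): TMM factors, a quasi-likelihood fit over the 9 libraries with 1 coefficient for each group, contrast EGCG-treated aged minus young, and Benjamini-Hochberg adjustment over the 12306 genes with at least 10 counts in 3 of the 6 compared libraries, at 0.05. Every adjusted p in the text is from this test unless another tool is named. Libraries of a group differed by more than counting noise. The steps were tested on simulated data. Alternatives were DESeq2 1.42.0, limma 3.58.1 on log2(FPKM + 1) and log2(FPKM + 0.1), other scalings and filters, a fit of the 6 libraries alone, a replicate block, removal of the trend with gene length, and leaving out each library. Promoter sequences are from RefSeq on GRCm38.p6.

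The comparison, the gene lists and the alternatives were chosen with earlier results of these data known, so list counts are descriptions and no list was tested as a set. Genes were named by this rule: up to 12 higher and 12 lower called genes with the largest log2 fold change that averaged 5 CPM or more in either group and did not overlap; up to 6 each way by difference in mean CPM; the 4 smallest p-values in each list; and Cyfip1, Cyfip2 and Akt genes. Unnamed models and immunoglobulin segments were not named. A few genes within this rule are left out of the text. Genes given for their role, for the tissue check or for their spread were chosen after their values were seen. Exact intervals are Clopper-Pearson and, like the floor of 3 counts, cover counting error only.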

Additional observations from a re-analysis of the deposited data

How the results depend on the processing

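Over 20 alternatives the count of higher genes stayed within 1.5 times of 3903, and so did that of lower genes around 4031, except on log2(FPKM + 1) and log2(FPKM + 0.1), where 2669 and 2676 genes were lower; the cause was not tested. The share of calls that were higher, 49.2%, became 65.3% with upper-quartile factors, 66.5% with library totals alone and 66.8% and 67.0% in the 2 FPKM settings, and 48.3 to 49.6% in the others. Leaving out 1 young or treated library gave 3661 to 3695 higher and 3876 to 3916 lower genes, and leaving out 1 untreated aged library, an alternative chosen after seeing the data, 3864 to 3893 and 4019 to 4035. The titles number the libraries of each group 1 to 3. Deviations of same-numbered treated and young libraries did not correlate (-0.015, 0.015 and -0.019), and the untreated aged libraries were not compared in this way. With 3 libraries in a group, these values give no sign of pairing but cannot exclude it. A fit with the replicate block gave 3853 higher and 3999 lower genes.

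Of 193 tested genes named in the text, 4 changed sign under some alternative. Glul, at 0.00 and not called, became 0.16 with upper-quartile factors, 0.17 with library totals, 0.17 on log2(FPKM + 1) and 0.17 on log2(FPKM + 0.1); it was 0.00032 with either form of DESeq2 factors and between -0.011 and 0.0086 with 1 library left out. Hspa1a, at -0.03 and not called, became 0.13, 0.14, 0.058 and 0.15 in those 4 scalings and lay between -0.18 and 0.27 without 1 library. With the length trend removed Alb became -0.0072 and Hamp -0.15, and Hamp lost its call with DESeq2 (0.10, adjusted p = 0.051) and without the third treated or the third young library (0.05 and 0.06).

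Genes with few counts limit precision: 3 counts, taken as the floor, correspond to 0.081 to 0.096 CPM in the compared libraries, and B and T cell genes lie near it in the young group.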

Other observations

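Red cell genes and the iron handling list as a whole are given here. Hba-a1 and Hbb-bs, adult globins, stood at 33.6, 38.9 and 35.4 CPM and 83.9, 84.4 and 75.8 CPM in young and at 69.3, 74.9 and 75.2 CPM and 147, 151 and 151 CPM in treated libraries (1.02 and 0.88), and both were higher in all 3 treated libraries than in any young one. Of 10 tested erythroid genes 5 rose and 2 fell, and globin genes are near-identical pairs whose reads could have been split. Of 25 iron handling genes 10 rose and 11 fell (median -0.02; 12 and 9 with upper-quartile factors). Steap4, a metalloreductase, fell from 1503–1576 to 139–148 CPM (-3.43), and Trf, transferrin, rose from 13165–13416 to 16110.0–16252 CPM (0.28).

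Cell cycle genes were low throughout, and of 28 tested 10 fell and 4 rose (median -0.37). Ccnd1, cyclin D1, fell from 45.8–52.3 to 15.2–15.8 CPM (-1.65), and Rrm2, a ribonucleotide reductase subunit, from 13.1–16 to 2.95–4.14 CPM (-2.05). Rgs16, a G protein regulator, stood at 73.1, 66.1 and 66.1 CPM in young, 16.4, 16.7 and 15.7 CPM in treated and 335, 332 and 328 CPM in untreated aged libraries. Gdf15, a stress hormone, stood at 6.43, 8.38 and 8.94 CPM in young, 27.3, 25.9 and 30.3 CPM in treated and 107, 104 and 106 CPM in untreated aged libraries.

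The gene that varied most within each compared group was a major urinary protein gene. Of 8585 genes that averaged 5 CPM or more in young libraries 87 had a coefficient of variation above 20%, among them 4 of 19 Mup genes, and Mup2 was highest at 102%. In treated libraries 73 of 8750 genes passed that mark, 3 of 19 Mup genes among them, with Mup18 highest at 61.5%.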
